A study of Mus musculus with 5 samples.

Results

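The 9 genes described here encode the hypoxia-inducible factor (HIF) subunits and the enzymes that couple them to oxygen: Hif1a, Epas1, Hif3a, Arnt, Egln1, Egln2, Egln3, Vhl and Hif1an. They were chosen by name, and all 9 were found once each among the 31053 genes counted. The data are single-cell RNA counts from 15 mammary tumors of MMTV-PyMT mice on the FVB/N background, a transgenic model with the polyoma middle T oncogene under the mouse mammary tumor virus promoter, which is active in mammary epithelium. All mice were dosed intraperitoneally from 7 weeks of age, at 5 mg/kg, 2 times per week, for 6 weeks. The 6 control tumors came from mice given the isotype IgG2a clone C1.18.4, and the 9 treated tumors from mice dosed with the VEGF-A-blocking antibody B20-4.1.1. VEGF-A is an angiogenic ligand that HIF induces. Each library was a pool of 3 tumors of a single treatment, told apart by multiplexing oligonucleotides, with 2 isotype pools and 3 B20-4.1.1 pools. The tumor was the unit compared, and pool and treatment cannot be told apart. The study's division of treated tumors by hypoxia is not in the labels and was not used here.

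HIF is a pair of proteins, an oxygen-labile alpha subunit (Hif1a, Epas1 or Hif3a) and a constitutive partner (Arnt). In oxygenated cells the prolyl hydroxylases Egln1, Egln2 and Egln3 (also called PHD2, PHD1 and PHD3) mark the alpha subunit for the ubiquitin ligase that Vhl recruits, and the asparaginyl hydroxylase Hif1an (factor inhibiting HIF) blocks its contact with coactivators. When oxygen is short the alpha protein accumulates and activates genes of glycolysis and angiogenesis, and also Egln1 and Egln3, which are established HIF targets. Much of this control acts on protein, which was not measured here.

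HIF binds DNA at a short core motif, written ACGTG or GCGTG. Promoter sequence is shown for the 3 members called below between cells with high and low counts of HIF target genes. Egln1 and Egln3 were higher in the former, and Hif1an was lower, in a call that some settings lost. The 3 were picked by that result, so their matches are no test of it. Each line is the 250 bases before the RefSeq start site, 5′ to 3′ on the gene's strand, with every match to either motif on either strand in capitals.
Egln1: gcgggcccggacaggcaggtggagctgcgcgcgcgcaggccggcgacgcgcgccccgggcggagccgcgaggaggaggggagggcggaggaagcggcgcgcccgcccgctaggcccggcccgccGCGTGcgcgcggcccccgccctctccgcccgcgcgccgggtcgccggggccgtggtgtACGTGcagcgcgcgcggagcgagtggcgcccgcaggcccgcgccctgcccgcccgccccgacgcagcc
Egln3: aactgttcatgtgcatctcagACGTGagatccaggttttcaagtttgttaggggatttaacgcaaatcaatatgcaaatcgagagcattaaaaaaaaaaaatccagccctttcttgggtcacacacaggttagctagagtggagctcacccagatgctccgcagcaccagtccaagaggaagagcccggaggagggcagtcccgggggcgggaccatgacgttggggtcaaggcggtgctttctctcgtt
Hif1an: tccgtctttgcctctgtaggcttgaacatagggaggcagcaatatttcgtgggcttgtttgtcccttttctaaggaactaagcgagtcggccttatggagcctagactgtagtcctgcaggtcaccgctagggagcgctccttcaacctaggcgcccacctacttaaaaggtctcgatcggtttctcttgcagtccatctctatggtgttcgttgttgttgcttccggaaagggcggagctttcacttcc
These windows are chr8:124949255-124949504 (minus strand), chr12:54203875-54204124 (minus strand) and chr19:44562604-44562853 (plus strand) of GRCm38.p6. The Egln1 window holds 1 ACGTG and 1 GCGTG, the Egln3 window holds 1 ACGTG, and the Hif1an window holds no match. Of 32851 promoter windows of this length, 16.6% held ACGTG, 28.2% held GCGTG and 38.6% held at least 1 of them. Of the other members with an entry, the windows of Hif1a (3 matches), Arnt (1), Hif3a (2) and Egln2 (4 and 1 in its 2 windows) held matches and that of Vhl held none. Of the 3 in Hif1a, 2 are the same palindrome read on both strands. Epas1 had no entry. Hif1a, Arnt and Egln2, with matches, and Vhl, without, were tested between the same cells and not called. A match is a run of letters and was not tested as a binding site.

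The deposited matrices held 30340 cells, with 4014509 to 23726246 UMIs per tumor, and 19533 cells were kept (at least 2500 UMIs and an upper limit, at most 20% mitochondrial). Cells were clustered without the 9 members and classes were named from marker genes, with "-like" because they rest on transcripts. Of 24 clusters, 2 stayed unnamed (570 cells). Epithelial-like (13685 cells), macrophage-like (1757) and T-like (2929) cells reached 20 cells in all 15 tumors and were tested. The UMI minimum removed 7126 isotype and 2981 B20-4.1.1 cells. Per tumor it removed 1772 to 2138 in isotype pool 1, 368 to 547 in isotype pool 2 and 146 to 849 in B20-4.1.1 pools. Before filtering, median UMIs per cell were 2192 to 2423 in tumors of isotype pool 1 and 6034 to 6582 in isotype pool 2. In B20-4.1.1 tumors these medians were 2819 to 9834.5. The part of depth in the differences between pools was not tested. No barcode was shared between tumors of a pool, and 94 were shared between tumors of different pools. The macrophage-like class joins a C1q-high cluster, a Retnla- and Ccr2-high cluster and a cycling cluster, and the T-like class joins a Lef1- and Il7r-high cluster with a Gzmb-, Nkg7- and Klrd1-high cluster whose leading genes are shared with natural killer cells, and with a cycling cluster.

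In epithelial-like cells, the transcripts of the HIF machinery did not differ detectably between treatments. A level is the number of UMIs of a gene per 10000 UMIs of the class in 1 tumor, and levels of different genes are not compared because counts depend on each transcript. Of the 9 members, 8 passed the filter on low counts, and none of the 8 was called at an adjusted p under 0.05 by edgeR's quasi-likelihood test, nor by DESeq2. In the same test 15.0% of 12270 genes were called. At an unadjusted p under 0.05 there was 1 member (Egln1), and 3933 genes in all. The tumors of a pool resembled each other (correlation 0.54 within pools), and the 1837 genes called became 42 with the pool as a random block and 0 with sums per pool. The median log2 fold change was 0.09 over the 8 tested members and -0.01 over all genes tested.

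**Figure D1:**
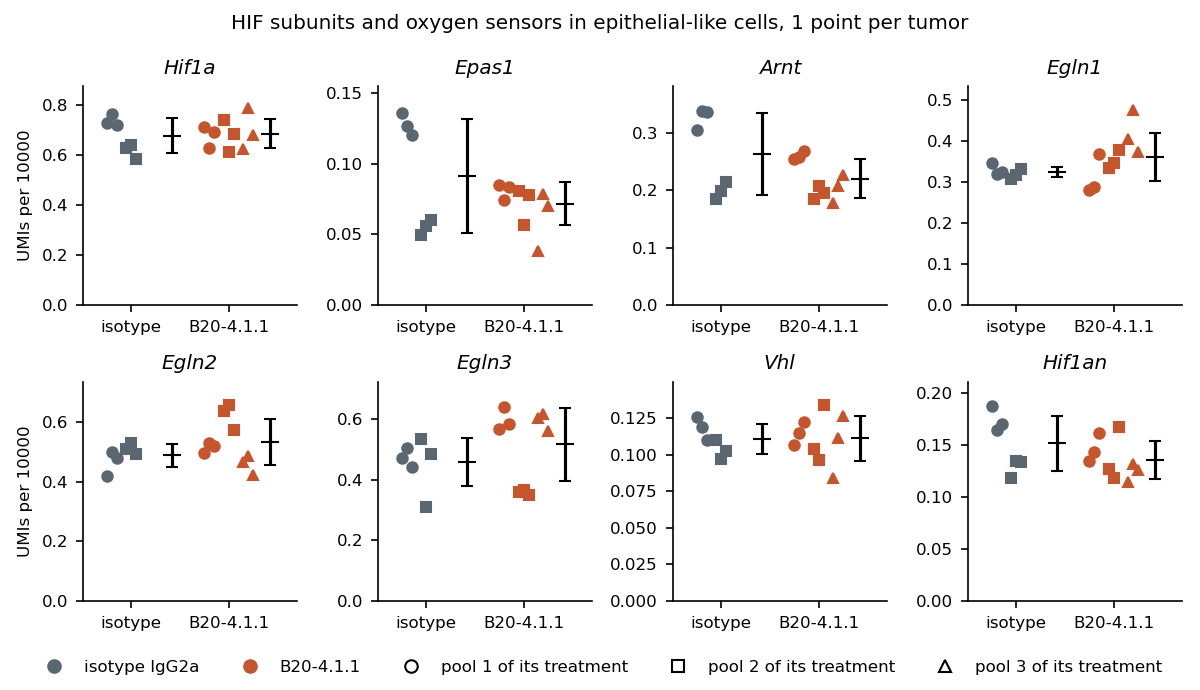
UMIs per 10000 in epithelial-like cells for 8 members, 1 point per tumor, with gray for isotype IgG2a, orange for B20-4.1.1, marker shapes for the pools and bars for the mean ± SD of 6 and 9 tumors. The treatment groups overlap for each gene, and the pools separate most for Epas1 and Arnt among isotype tumors and for Egln3 among B20-4.1.1 tumors.

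Hif1a, the main alpha subunit (chromosome 12, 73901375 to 73947530, plus strand, GRCm38), ranged from 0.586 through a median of 0.679 to 0.764 UMIs per 10000 in the 6 isotype tumors, and from 0.610 through 0.685 to 0.786 in the 9 B20-4.1.1 tumors. The 2 groups overlapped over almost their whole range, but the isotype pools did not: pool 1 held 0.720 to 0.764 and pool 2 held 0.586 to 0.638. The log2 fold change was 0.10 (SE 0.06, adjusted p = 0.311 by edgeR's quasi-likelihood test), with a 95% interval from -0.04 to 0.23. After thinning each cell to 2500 UMIs, the share of cells with a Hif1a UMI was 14.0% ± 1.46 for the 6 isotype tumors and 15.1% ± 1.66 for the 9 treated tumors (SD).

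Epas1, which encodes HIF-2 alpha (chromosome 17, 86753700 to 86833410, plus strand), ranged from 0.0495 through a median of 0.0903 to 0.136 UMIs per 10000 in isotype tumors and from 0.0381 through 0.0779 to 0.0850 in B20-4.1.1 tumors. The spread in isotype tumors lay between pools: the 3 tumors of isotype pool 1 held 0.120 to 0.136, and the 3 of isotype pool 2 held 0.0495 to 0.0601, below most treated tumors. The log2 fold change was -0.27 (SE 0.21, adjusted p = 0.398 by edgeR). It was 0.31 without isotype pool 1 and -0.67, past the threshold, without isotype pool 2. The fit without isotype pool 2 called 5560 genes in all, against 1837 in the main test.

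Arnt, the shared partner (chromosome 3, 95434388 to 95497240, plus strand), showed the same layout. Its 3 tumors of isotype pool 1 held 0.305 to 0.339 UMIs per 10000, and those of isotype pool 2 held 0.185 to 0.215, within the range of 0.177 to 0.269 in B20-4.1.1 tumors. The log2 fold change of -0.14 (SE 0.12, adjusted p = 0.436 by edgeR) became 0.13 without isotype pool 1 and -0.35, past the threshold, without isotype pool 2. Again, 5560 genes were called without isotype pool 2. Hif3a, the third alpha subunit (chromosome 7, 17031507 to 17062427, minus strand), was nearly absent: 1 UMI among 134536417 of epithelial-like cells, 0 among 13019087 of macrophage-like cells and 0 among 14468991 of T-like cells.

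Among the prolyl hydroxylases, Egln1 (chromosome 8, 124908587 to 124949324, minus strand) ranged from 0.308 through a median of 0.323 to 0.346 UMIs per 10000 in isotype tumors and from 0.281 through 0.367 to 0.476 in B20-4.1.1 tumors. The treated tumors spread on both sides of the narrow isotype range, with the highest 2 values in B20-4.1.1 pool 3. The log2 fold change was 0.24 (SE 0.11, adjusted p = 0.138 by edgeR), and it passed the threshold at 0.36 without B20-4.1.1 pool 1. Egln2 (chromosome 7, 27158658 to 27166802, minus strand) ranged from 0.418 through 0.495 to 0.529 in isotype tumors and from 0.423 through 0.520 to 0.656 in B20-4.1.1 tumors (log2 fold change 0.18, SE 0.10, adjusted p = 0.221 by edgeR). The B20-4.1.1 pools did not overlap: 0.496 to 0.528 in pool 1, 0.573 to 0.656 in pool 2 and 0.423 to 0.487 in pool 3. Without isotype pool 2 the log2 fold change was 0.37, past the threshold, in the fit that called 5560 genes.

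Egln3, a hydroxylase strongly induced by HIF in many cells (chromosome 12, 54178981 to 54203860, minus strand), ranged from 0.311 through a median of 0.478 to 0.533 UMIs per 10000 in isotype tumors and from 0.351 through 0.568 to 0.640 in B20-4.1.1 tumors. The treated tumors fell apart by pool: those of pools 1 and 3 held 0.561 to 0.640, above every isotype tumor, whereas the 3 tumors of pool 2 held 0.351 to 0.366, within the isotype range. The log2 fold change over all 9 treated tumors was 0.29 (SE 0.15, adjusted p = 0.182 by edgeR). Without B20-4.1.1 pool 2 it was 0.47 and past the threshold (adjusted p = 0.0214 by edgeR), in a fit that called 1099 genes. B20-4.1.1 pool 2 held the fewest epithelial-like cells, 78 to 510 per tumor. Its target gene score, the mean log2 CPM of 34 HIF target genes, was 5.80 to 5.85, against 5.88 to 6.18 in pools 1 and 3. Isotype tumors had scores of 5.23 to 5.53. The part of cell number or of this score in the Egln3 levels was not tested.

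Vhl (chromosome 6, 113623959 to 113631633, plus strand) ranged from 0.0970 to 0.126 UMIs per 10000 in isotype and from 0.0842 to 0.134 in B20-4.1.1 tumors, and Hif1an (chromosome 19, 44562850 to 44576274, plus strand) from 0.119 to 0.188 and from 0.114 to 0.167. Both pairs of ranges overlapped. Their log2 fold changes were 0.08 (SE 0.10, adjusted p = 0.693 by edgeR) and -0.08 (SE 0.09, adjusted p = 0.595 by edgeR).

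The shares of cells with a UMI gave the same picture. Over thinned epithelial-like cells, 2.05% of 12270 genes were called by an exact two-sided permutation test, which runs over 5005 assignments of the tumors, and none of the 8 tested members was (exact permutation, lowest adjusted p = 0.391 for Epas1, and no member at an unadjusted p under 0.05). The differences ran from -1.11 percentage points for Arnt to 1.35 for Egln2. Without isotype pool 2, Epas1 was past the threshold (-1.49 percentage points, adjusted p = 0.0303, exact permutation). That setting kept only isotype pool 1 as control. Its share of all genes called is not given here, so the call cannot be set against a background. For Egln3 the median thinned share was 0.538% of T-like cells, against 8.97% of epithelial-like cells. Median depths were 4162 and 8752 UMIs before thinning. The part of free RNA or of doublets in the T-like share was not tested.

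Where 15.0% of all genes were called, 0 of 8 members by itself says little, and members were not tested against the target genes. Of 35 listed HIF target genes, 34 were tested in epithelial-like cells, and 20 rose and 1 fell, with a median log2 fold change of 0.51. Of all 12270 genes tested, 15.0% were called, 936 up and 901 down. These calls rest on the same test, in which sums per pool gave no call for any gene. The epithelial-like class also differed in make-up between treatments: the cluster led by Pip and Scgb2b27 held 1671 isotype and 312 B20-4.1.1 cells, and the cluster led by Wfdc12, Slpi and Spp1 held 478 and 880. The 35 target genes summed to 42.8 UMIs per 10000 in the former and 58.6 in the latter. The part of this make-up in the target gene calls was not tested. Among the called were Ankrd37 (2.71-fold, adjusted p = 0.000451), the glycolytic kinase Pgk1 (1.90-fold, adjusted p = 0.000437) and the triose isomerase Tpi1 (1.65-fold, adjusted p = 0.000451, all by edgeR). The target score ran from 5.23 to 5.53 in isotype and from 5.80 to 6.18 in B20-4.1.1 tumors, without overlap. The share of all genes whose levels separate the groups in this way was not counted. Within pools the target score covered narrower ranges, such as 5.877 to 5.914 in B20-4.1.1 pool 1 and 5.955 to 6.184 in B20-4.1.1 pool 3. No member's level was called against that score within pools over the 15 tumors. The test, over 7776 permutations, called no gene at all, so it cannot show that a member is unrelated to the score. With both centered on their pool means, Pearson's r ran from -0.42 (Hif1a, adjusted p = 0.898) to 0.41 (Egln3, adjusted p = 0.942, exact permutation within pools), and Spearman's rho from -0.47 (Hif1a, adjusted p = 0.877) to 0.38 (Egln1, adjusted p = 0.916, exact permutation within pools). Of 12236 genes 0% were called in this test, in which 756 genes and 0 members had an unadjusted p under 0.05 by the permutation test. Without the 2 tumors farthest from the median score, r ran from -0.48 (Epas1) to 0.425 (Egln2, from 0.11 with all tumors), and was -0.35 for Hif1a and 0.31 for Egln3. Levels not centered on pools gave other values, with no test of their own: for Hif1a r was -0.985 over the 6 isotype and 0.28 over the 9 B20-4.1.1 tumors, for Egln3 0.39 and 0.72, for Egln1 0.59 and 0.65, and for Egln2 0.22 and -0.54. These include the differences between pools.

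None of the 6 VHL ubiquitin ligase partners, the proteins that form the ligase with Vhl (such as elongins B and C, Cul2 and Rbx1), was called in epithelial-like cells by edgeR, and 0 had an unadjusted p under 0.05. These counts stand beside the 15.0% of all genes called in this test. Of 7 HIF cofactors and competitors, 1 rose and 2 fell: Cited2, a protein that competes with HIF for CBP and p300, rose 1.26-fold (adjusted p = 0.0440), the coactivator Ncoa2 fell to 0.704 of the isotype level (adjusted p = 0.0147), and Crebbp, which encodes CBP, fell to 0.819 (adjusted p = 0.0455, all by edgeR). Of 10 HIF stability regulators outside the VHL complex, 0 rose and 1 fell, the chaperone Hsp90aa1 (0.771 of the isotype level, adjusted p = 0.0135 by edgeR). Of 13 other oxygen-dependent dioxygenases, 1 rose and 2 fell. Jmjd6 rose 1.51-fold (adjusted p = 0.00122), and the methylcytosine dioxygenases Tet3 and Tet1 fell to 0.731 and 0.779 (adjusted p = 0.0216 and 0.0453, all by edgeR). None of the 5 tested of 9 other bHLH-PAS factors was called by edgeR, with 1 at an unadjusted p under 0.05.

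Within single epithelial-like clusters the Egln3 estimate was above 0 in all 9 clusters with enough tumors. It was highest in the cluster led by Spp1, Cyr61 and Ier2 (log2 fold change 0.94, adjusted p = 0.0317) and the cluster led by Wfdc12, Slpi and Spp1 (1.33, adjusted p = 0.0475, both by edgeR). These were clusters with little Egln3, 0.300 and 0.275 UMIs per 10000 over all tumors. Each of the 9 clusters was fitted and adjusted by itself, with the pool not modeled. The clusters were cut from the same tumors, so the 9 estimates are not independent. The share of all genes called in these fits is not given here, so these calls cannot be set against a background. Hif1a was also above 0 in all 9, from 0.04 to 0.39, with no adjusted p under 0.05 by edgeR. Across the 11 epithelial-like clusters, Egln3 ran from 0.0199 to 0.737 UMIs per 10000, Epas1 from 0.00663 to 0.145, and Egln2 from 0.459 to 0.555. The lowest values of both Egln3 and Epas1 were in a cluster of 116 cells led by Ptn and Areg, on 3 UMIs and 1 UMI, in which Hif1a was highest, at 1.33. Over the other clusters Egln3 started at 0.214 and Epas1 at 0.0399.

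In macrophage-like cells, Egln3, Egln1 and Hif1a were each higher on average after B20-4.1.1, and none was called. Of the 9 members, 6 passed the filter. None was called by edgeR or by DESeq2, which gave Egln3 no adjusted p, beside 0.0133% of 7503 genes, and 3 of the 6 had an unadjusted p under 0.05, as had 699 genes in all. Egln3 ran from 0.0122 through a median of 0.102 to 0.127 UMIs per 10000 in isotype tumors, and from 0.0406 through 0.142 to 0.359 in B20-4.1.1 tumors. It was above the highest isotype tumor in 6 of the 9 treated tumors, but rests on 67 and 95 UMIs in all. Its log2 fold change was 1.03 (SE 0.37, adjusted p = 0.375 by edgeR). Hif1a ran from 1.16 through 1.38 to 1.62 in isotype and from 0.961 through 1.97 to 2.37 in B20-4.1.1 tumors, so that the treated tumors lay on both sides of the isotype range (log2 fold change 0.38, SE 0.17, adjusted p = 0.499 by edgeR). Egln1 ran from 0.534 through 0.617 to 0.705 and from 0.487 through 0.727 to 1.28 (log2 fold change 0.41, SE 0.18, adjusted p = 0.499 by edgeR). The log2 fold changes of the other tested members were 0.33 for Vhl (SE 0.22), -0.05 for Arnt (SE 0.18) and -0.12 for Egln2 (SE 0.20). The 9 epithelial markers summed to 2.06 to 4.40 UMIs per 10000 in macrophage-like cells of isotype tumors and to 1.47 to 5.23 in those of B20-4.1.1 tumors, with at most 1 of 9 at 0.

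The T-like class differs in make-up between treatments: its Lef1- and Il7r-high cluster held 79 isotype and 1560 B20-4.1.1 cells, and its Gzmb-high cluster 599 and 588. In T-like cells 6 members were tested and none was called by edgeR or DESeq2, beside 0.0594% of 6738 genes, with 0 members and 1007 genes at an unadjusted p under 0.05. The log2 fold changes ran from -0.29 (Vhl, SE 0.29) to 0.23 (Egln2, SE 0.19). For Hif1a it was 0.01 (SE 0.19), with 95% limits of -0.41 and 0.43. The values of Arnt, Egln1 and Hif1an were 0.23 (SE 0.26), -0.10 (SE 0.17) and 0.13 (SE 0.21). The difference of treatment effects between classes was tested directly. No member was called for macrophage-like against epithelial-like cells (0.0779% of 11554 genes called) or for T-like against epithelial-like cells (0.0414% of 12075), with 2 and 0 of 8 members at an unadjusted p under 0.05 in edgeR. The 2 were Egln3 (difference 0.74 log2, SE 0.31) and Hif1an (0.61, SE 0.27).

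**Figure D2:**
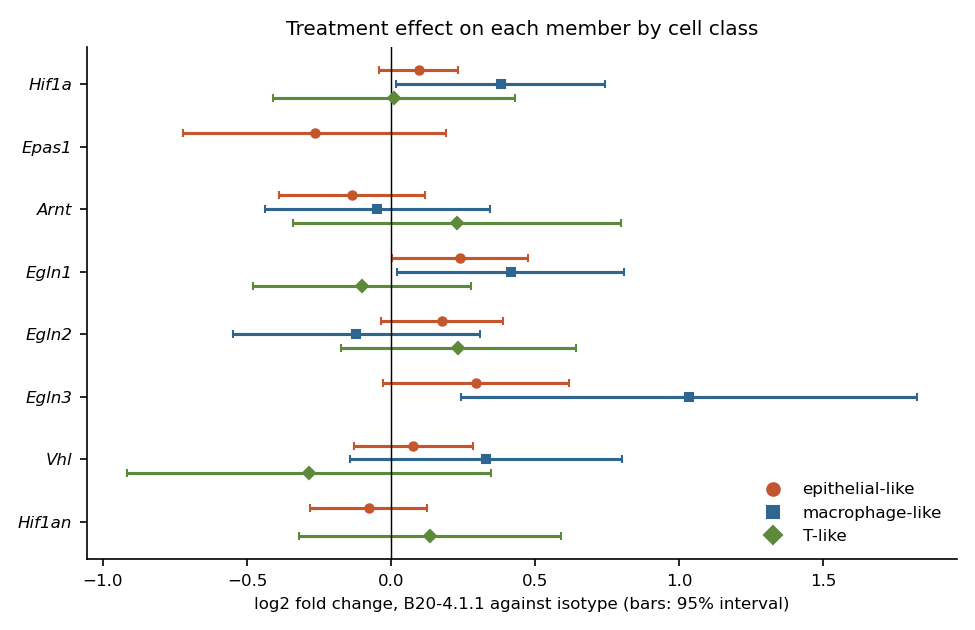
Log2 fold change of each tested member for B20-4.1.1 against isotype IgG2a in the 3 classes, with 95% intervals from the standard error as bars. Most estimates lie within 0.5 of 0, and the largest is Egln3 in macrophage-like cells at 1.03, which was not called after adjustment.

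Each tumor's macrophage-like cells were set against its own epithelial-like cells. All 8 tested members were called, where 80% of 11554 genes were, so that a call by itself says little. Hif1a was higher in macrophage-like cells in 15 of 15 tumors, at 0.961 to 2.37 against 0.586 to 0.786 UMIs per 10000 (log2 difference 1.23, SE 0.08). Vhl was higher in 14 of 15 tumors, at 0.102 to 0.497 against 0.0842 to 0.134 (1.43, SE 0.13). Egln1 was higher in 15 of 15 (1.07, SE 0.07). The reverse held for Egln3, at 0.0122 to 0.359 against 0.311 to 0.640 and lower in all 15 tumors (-1.95, SE 0.15), for Egln2, lower in all 15 (-0.70, SE 0.10), and for Epas1, lower in all 15 (-2.38, SE 0.29). Hif1an was higher in only 2 of 15 (-0.63, SE 0.14). Arnt differed least (0.22, SE 0.08, adjusted p = 0.0214 by edgeR), and its call was lost in 8 of 10 alternative settings.

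In T-like against epithelial-like cells of the same tumors, 6 of 8 tested members were called, where 78.6% of 12075 genes were. Egln1 was higher in 14 of 15 tumors (log2 difference 0.88, SE 0.10) and Hif1an in 14 of 15 (0.63, SE 0.11). Hif1a was higher in 13 of 15 (0.30, SE 0.10, adjusted p = 0.00935 by edgeR), and fell short of the threshold without isotype pool 1 (0.25) and without the filter on low counts (0.23). Egln3 (-3.34, SE 0.17), Epas1 (-1.64, SE 0.27) and Egln2 (-0.66, SE 0.09) were lower, Egln2 in 14 of 15 tumors and the other two in all 15. Arnt (-0.21, SE 0.14) and Vhl (0.23, SE 0.16) were not called. With classes set by a per-cell marker gate, chosen after seeing the data, Arnt was past the threshold (-0.32, adjusted p = 0.0270 by edgeR).

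Some of these low levels lie near the level of epithelial markers in the same cells. The 9 epithelial markers in T-like cells stood at 7.08% (median; range 1.80% to 21.6%) of their level in epithelial-like cells of the same tumor, and in macrophage-like cells at 3.60% (1.44% to 6.43%). Egln3 in T-like cells stood at a median of 7.77% of its epithelial-like level, and in macrophage-like cells at 23.4%. For Epas1 the medians were 30.5% and 23.8%, on 36 and 21 UMIs. The part of free RNA or of doublets in these levels was not tested.

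**Figure D3:**
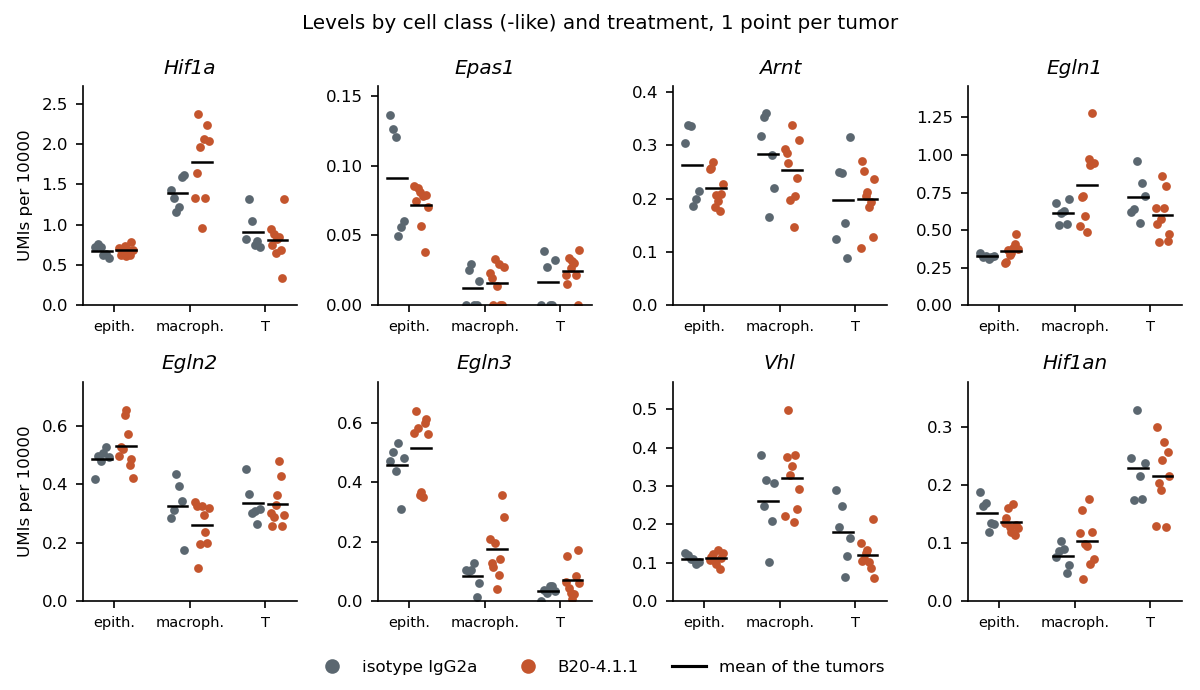
UMIs per 10000 of 8 members in epithelial-like (epith.), macrophage-like (macroph.) and T-like cells, 1 point per tumor, gray for isotype IgG2a and orange for B20-4.1.1, with lines at group means. Hif1a and Vhl are highest in macrophage-like cells, Egln3, Epas1 and Egln2 in epithelial-like cells, and Hif1an in T-like cells.

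The other classes were too small for a test across tumors, and their levels are summed over all tumors with exact 95% Poisson intervals, which cover counting error only. Endothelial-like cells (53 cells) had the highest Epas1, at 0.422 UMIs per 10000 (0.267 to 0.633, on 23 UMIs). Of these cells 41 came from isotype tumors, their leading genes included Col4a1, Sparc and Plvap, and 18 passed a per-cell gate on endothelial markers and 8 one on epithelial markers. By treatment, their Epas1 was 0.274 in isotype (12 UMIs) and 1.02 in B20-4.1.1 tumors (11 UMIs). Summed over treatments, endothelial-like cells were also highest for Egln3, at 1.67 (1.34 to 2.05), and Egln1, at 1.49 (1.18 to 1.85), but these values rest on the isotype cells. Egln3 was 2.06 for isotype (90 UMIs) and 0.0925 for B20-4.1.1 (1 UMI, 12 cells), where neutrophil-like cells of treated tumors held 1.01 and epithelial-like cells 0.560. Egln1 was 1.69 for isotype (74 UMIs) and 0.647 for B20-4.1.1 (7 UMIs), where macrophage-like cells of treated tumors held 0.763. Neutrophil-like cells (221 cells, 175 from isotype and 46 from B20-4.1.1 tumors) held 0.847 for Egln3 over both treatments (0.689 to 1.03). Of these cells 100 passed a per-cell gate on neutrophil markers and 11 the gate on epithelial markers. Fibroblast-like cells (64 cells) held 2.14 for Hif1a (1.80 to 2.52) but 0.0150 for Egln3 (1 UMI), 0 UMIs of Epas1, and 2 of the 3 Hif3a UMIs found in named classes. Dendritic-like cells (57 cells) stood out by Vhl, at 0.885 (0.616 to 1.23), with a UMI of Egln3 in 0 of 57 cells. For that 0, the floor of 3 cells is a share of 5.26%, and the exact 95% binomial limit is 6.27%. B-like cells (197 cells, of which 191 were from B20-4.1.1 tumors) held 1.31 for Hif1a and 0.290 for Hif1an. For Hif1a the intervals of the endothelial-like, fibroblast-like and dendritic-like cells overlap.

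**Figure D4:**
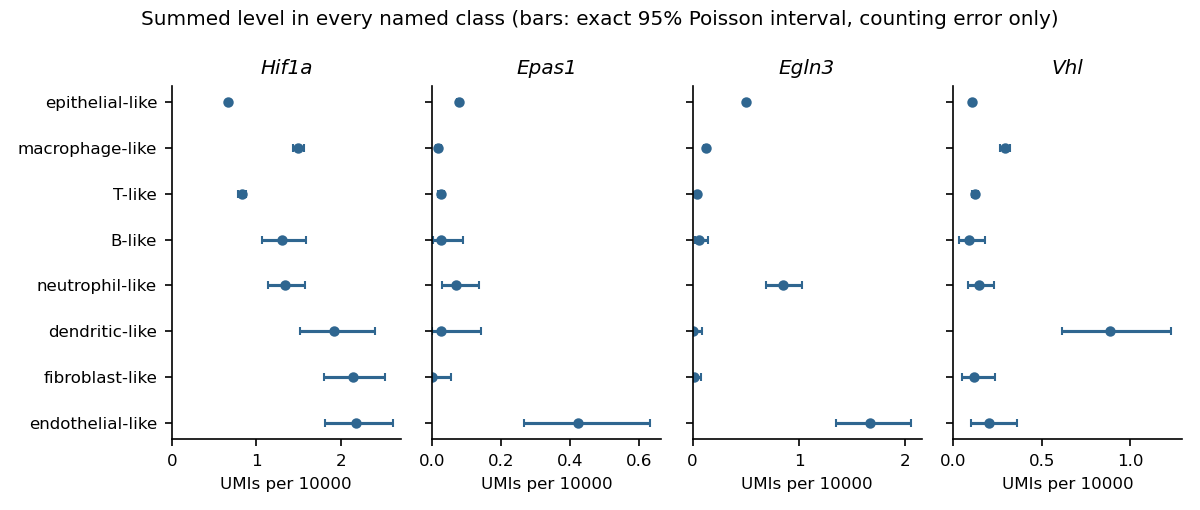
Level of 4 members in all 8 named classes, summed over tumors, with exact 95% Poisson intervals as bars. Endothelial-like cells are highest for Epas1 (0.422 UMIs per 10000) and Egln3 (1.67, with 90 of 91 UMIs from isotype tumors), and dendritic-like cells for Vhl (0.885).

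Within each tumor, epithelial-like cells were then ranked by their UMIs of the 35 HIF target genes, after thinning to 2500 UMIs, and the highest 25% (target-high cells) were set against the lowest 25% (target-low cells). No member is in that list. Of the 15 tumors, 14 had enough cells (41 to 495 in each set). Target-high cells held on average 17.2 to 21.3 target UMIs in isotype and 25.4 to 28.8 in B20-4.1.1 tumors, and target-low cells held means of 4.5 to 5.27 and 5.40 to 6.45. Of each tumor's cells, 8.30% to 14.0% had exactly the number of target UMIs at one of the limits. These sets are ends of a range and not cell types.

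Of 7 members tested, 3 were called, where 35.7% of 8499 genes were. Egln1 was higher in the target-high cells of 14 of 14 tumors. Its level in target-low cells ran from 0.101 through a median of 0.248 to 0.339 UMIs per 10000, and in target-high cells from 0.298 through 0.427 to 0.944 (log2 difference 1.00, SE 0.14, adjusted p = 1.26e-06 by edgeR). Egln3 was higher in 13 of 14 tumors and equal in the other, from 0 through 0.286 to 0.477 in target-low and from 0.322 through 0.707 to 1.22 in target-high cells (1.36, SE 0.17, adjusted p = 7.48e-08 by edgeR). Hif1an was lower in 12 of 14 tumors, with medians of 0.171 in target-low and 0.114 in target-high cells (-0.58, SE 0.19, adjusted p = 0.0135 by edgeR). It rests on 154 and 97 UMIs, and its call was lost without isotype pool 1 (-0.53), without isotype pool 2 (-0.57) and with the upper against the lower 50% of cells (-0.33). No difference was detected for the alpha subunit: Hif1a ran from 0.454 through 0.657 to 1.07 in target-low and from 0.441 through 0.696 to 0.921 in target-high cells (0.06, SE 0.11, adjusted p = 0.676 by edgeR). Arnt (-0.12, SE 0.16), Egln2 (0.18, SE 0.11) and Vhl (0.43, SE 0.23, adjusted p = 0.152 by edgeR) were not called either. Of the 6 VHL ligase partners, 5 were higher in target-high cells and 0 lower, and of the 7 cofactors and competitors 1 was higher and 5 were lower.

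The Egln3 step was larger in B20-4.1.1 tumors in the main test, a call that most alternative settings lost. In the 6 isotype tumors Egln3 went from 0.324 ± 0.0965 in target-low to 0.508 ± 0.138 UMIs per 10000 in target-high cells (SD), a median ratio of 1.39. In the 8 B20-4.1.1 tumors it went from 0.252 ± 0.131 to 0.966 ± 0.296 (SD), a median ratio of 3.23 in the 7 tumors with an Egln3 UMI in target-low cells. The levels of both groups overlapped in target-low cells, and in target-high cells 6 of 8 treated tumors, from 0.944 to 1.22, lay above the highest isotype tumor at 0.752. The difference of the log2 steps was 1.27 (SE 0.28, adjusted p = 0.0271 by edgeR), where 0.282% of 8499 genes were called. By pool, the ratio of summed levels was 1.33 and 2.04 for isotype, and 3.85, 3.12 and 4.07 for B20-4.1.1. The call was lost in 6 of 9 alternative settings, although the difference stayed above 0 in all 9. These were DESeq2 (1.30, adjusted p = 0.0543), the fits by edgeR without isotype pool 1 (0.99, adjusted p = 0.518), B20-4.1.1 pool 1 (1.30, adjusted p = 0.153) or B20-4.1.1 pool 3 (1.21, adjusted p = 0.161), and 2 settings chosen after seeing the data, the upper against the lower 50% of cells (0.83, adjusted p = 0.110) and sums per pool (1.25, adjusted p = 0.0744). For Egln1 the difference was 0.74 (SE 0.27, adjusted p = 0.397 by edgeR) and for Hif1a 0.58 (SE 0.20, adjusted p = 0.385 by edgeR), neither called. Hif1a was higher in target-high cells in 1 of 6 isotype and 5 of 8 B20-4.1.1 tumors. The gap in target UMIs between target-high and target-low cells was itself wider in B20-4.1.1 tumors, by the values given above, and its part in the Egln3 difference was not tested. The cluster make-up of the sets also was not tested. The cluster led by Pip and Scgb2b27, with 1671 isotype and 312 B20-4.1.1 cells, held 0.537 UMIs of Egln3 and 42.8 of the target genes per 10000.

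**Figure D5:**
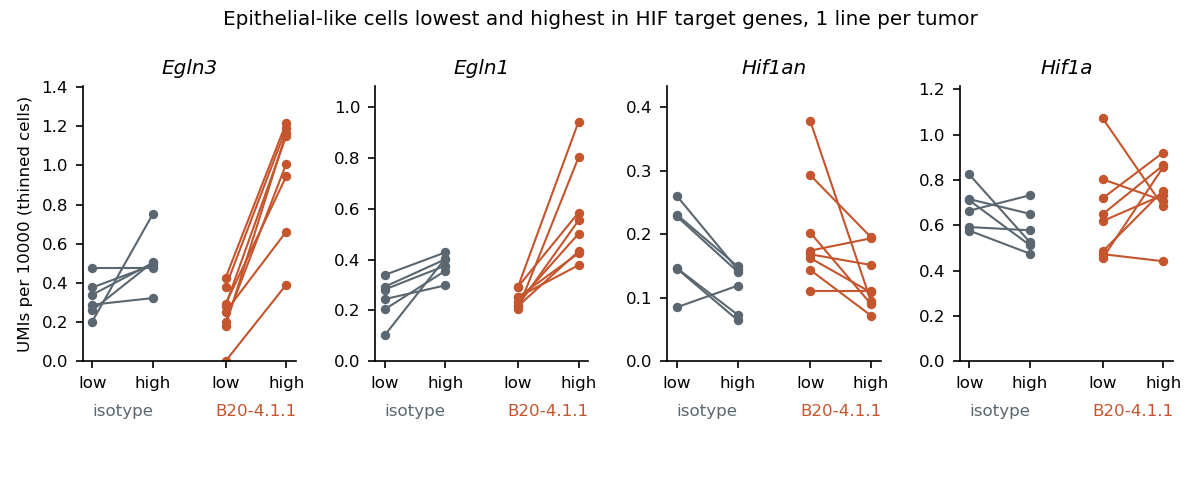
UMIs per 10000 in the epithelial-like cells lowest and highest in HIF target genes, thinned to equal depth, with 1 line per tumor, gray for the 6 isotype and orange for the 8 B20-4.1.1 tumors. Egln3 rises from a median of 0.268 to 1.08 in B20-4.1.1 tumors and from 0.314 to 0.496 in isotype tumors, and Egln1 rises in all 14.

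The genes whose pool-centered log2 CPM over the 15 tumors was most like each member's were named from 4193 genes with a mean of at least 5. They share libraries, depth and cell mix with the member, so that r is a description. For Hif1a they were Mphosph8 (r = 0.867), Slc35a1 and Ppp2r3a. For Epas1 they were AY036118 (0.964) and Gm42418 (0.942), transcripts that overlap ribosomal RNA repeats, and Far1 (0.932). For Arnt the first was Kcnq1ot1 (0.868), for Egln1 Add1 (0.879), for Egln2 Kars (0.863), for Egln3 Uqcrh (0.824), for Vhl Zfp280d (0.917) and for Hif1an Lsm3 (0.939). No member was among the 3 nearest genes of another.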

How the data were processed

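Tumors were dissociated, DAPI- cells were sorted, and 3 tumors per library were multiplexed and captured with the Chromium 3′ chemistry. The authors counted reads with Cell Ranger (6.1.2 per the file headers; mm10 and Seurat 4.3.0 in the submitters' processing notes) and deposited a matrix of raw UMI counts for each tumor, not normalized, over 31053 genes plus 12 multiplexing features. Pooled capture and 3′ counting limit depth per cell, and the Poisson and binomial intervals cover counting error only.

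Cells with 2500 to 27500 UMIs and at most 20% mitochondrial UMIs were kept. No doublet caller was run. Leiden clusters (2500 variable genes without the members, 16 components, 20 neighbors, resolution 0.8) were named from marker lists, needing 3 markers in 25% of cells. Python 3.11.15 (scanpy 1.11.5, leidenalg 0.10.2, numpy 2.4.6, scipy 1.17.1) and R 4.3.3 were used. Counts summed per tumor and class were tested with edgeR 4.0.16 (quasi-likelihood F test, TMM, filterByExpr, two-sided, Benjamini-Hochberg over all genes tested, threshold 0.05), with the tumor as a block between classes or target-high and target-low sets of the same tumors. DESeq2 1.42.0, limma 3.58.1 with the pool as a random block, and other filters, gates and left-out pools were alternatives. Shares and correlations used exact permutation. The scripts were tested on simulated data. The counts drawn for the edgeR fits had no pool effect, so they do not cover false calls caused by pools.

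The labels do not say more of how tumors were sampled, so p-values measure the spread between tumors, and pools are not modeled in the main test. The rule named all 9 members in each comparison, and members not given singly there are covered by their count and range. Of each pathway list, up to 3 called genes with the smallest p are named, and for each member the 3 nearest genes by r were taken. Members and lists were chosen with earlier results of these data known. Promoter sequences are from RefSeq, GRCm38.p6, with 8 of 9 members matched, and gene positions are from a GRCm38 annotation.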

Additional observations from a re-analysis of the deposited data

Results flagged for a closer look

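The treatment difference in the Egln3 step between target-low and target-high epithelial-like cells (1.27 on the log2 scale, adjusted p = 0.0271 by edgeR) stood out because the effect of 1 contrast differed between the treatment groups. The step was upward in 8 of 8 B20-4.1.1 tumors and in 5 of 6 isotype tumors. The difference missed the threshold in 6 of 9 alternative settings, among them DESeq2 (1.30, adjusted p = 0.0543) and sums per pool (1.25, adjusted p = 0.0744 by edgeR). Pools were of 1 treatment each, and the effect of pool cannot be told apart from that of treatment. No tumor lay far from the rest of its group by Dixon's test in the 48 groups of member levels tested.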

How the results depend on the processing

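No paired analysis was possible because replicate numbers only number the pools within a treatment, and pools of different treatments share nothing but that number. Leaving out 1 pool at a time, the members called ran from 0 to 3 for the treatment effect in epithelial-like cells, from 0 to 1 for the treatment difference between target-high and target-low cells, and from 0 to 1 for the share of cells with a UMI. The 3 were called without isotype pool 2, in a fit that called 5560 genes. The treatment difference had 0 members called with DESeq2, with the upper against the lower 50% of cells and with sums per pool, the last 2 chosen after seeing the data. For the treatment effect within single epithelial-like clusters, each adjusted by itself, at most 1 member was called. Directions that turned when a pool was left out were those of members uncalled in the main test. In epithelial-like cells the log2 fold changes were Epas1 -0.67 to 0.31, Arnt -0.35 to 0.13 and Hif1an -0.18 to 0.032. The low ends of Epas1 and Arnt, both without isotype pool 2, were past the threshold. In macrophage-like cells the log2 fold change of Arnt was -0.25 to 0.26. In T-like cells the log2 fold changes were Vhl -0.83 to 0.14, Hif1a -0.22 to 0.22, Egln1 -0.30 to 0.013 and Hif1an -0.011 to 0.21. For the T-like minus epithelial-like effect they were Hif1a -0.20 to 0.071, Vhl -0.86 to 0.031, Egln2 -0.23 to 0.22 and Hif1an -0.0093 to 0.26, for target-high cells Hif1a -0.045 to 0.25, and for its treatment difference Arnt -0.17 to 0.18, Vhl -0.70 to 0.16 and Egln2 -0.28 to 0.15. In percentage points of cells with a UMI they were Egln1 -0.72 to 0.80, Epas1 -1.49 to 0.12, Arnt -2.40 to 0.19, Vhl -0.29 to 0.020 and Hif1an -0.82 to 0.089. Here too the low end of Epas1, without isotype pool 2, was past the threshold.

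Other settings also turned uncalled members. In epithelial-like cells these were Vhl with the pool as a random block (-0.013), Hif1an with thinned cells (0.0033), and, within single clusters, Arnt (up to 0.29), Hif1an (up to 0.36), Egln1 (down to -0.30), Egln2 (down to -0.56) and Vhl (down to -0.21). In macrophage-like cells they were Arnt (0.036) and Egln2 (0.068) with the random block, Arnt with a minimum of 5000 UMIs (0.037) and Egln2 with a per-cell marker gate (0.039). In T-like cells they were Hif1a with thinned cells (-0.050) and a 10% mitochondrial limit (-0.0037), and Egln1 (0.0055) and Hif1an (-0.095) with a minimum of 5000 UMIs. With thinned cells, chosen after seeing the data, the Arnt difference between T-like and epithelial-like effects was -0.27. With the 50% sets, Arnt in target-high cells was 0.015 and the Egln2 treatment difference, chosen after seeing the data, was 0.058. Without thinning, the shares of cells with Vhl and Hif1an rose by 1.35 and 0.73 percentage points. The causes were not tested. Genes called for the treatment effect in epithelial-like cells ran from 413 without isotype pool 1 to 5560 without isotype pool 2.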
